A study of Anthurium andraeanum with 18 samples.

Results

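COR410 and LEA5 are 2 stress-protein transcripts of Anthurium andraeanum, a flowering pot and cut-flower plant of the arum family, and are described here in leaves of 2 cultivars at 25 °C and in the cold. They were taken by identifier from 132108 transcript groups of a genome-free assembly: TRINITY_DN40128_c2_g5 for COR410 and TRINITY_DN52422_c2_g1 for LEA5. Identifiers are printed below without their shared prefix TRINITY_. Both passed the filter on low counts, as did 51670 transcript groups in all. The rule that picks them uses no measured value.

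The table names COR410 for its best protein match, the wheat dehydrin COR410, and lists a Pfam dehydrin domain in it. LEA5 is named for the citrus protein Lea5 and carries a Pfam LEA_3 domain. COR410 was 1 assembled transcript of 854 bases. LEA5 had 3 assembled forms, with a listed length of 1488 bases.

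Late embryogenesis abundant (LEA) proteins are small, very water-soluble proteins that were first found in seeds as these dry out, and that leaves also make under drought, salt and cold. Dehydrins are one LEA family. They carry lysine-rich repeats that bind membrane surfaces, and in wheat COR410 gathers near the plasma membrane of cold-hardened cells. LEA_3 proteins are an unrelated, atypical family; in citrus Lea5 is known as a leaf transcript of drought, heat and salt stress, and in Arabidopsis the family member SAG21 is imported into mitochondria.

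RNA was sequenced from leaves of full-flowering plants of the cultivars Oregon and Fantasy Love under 12 h of light and 12 h of dark. Control plants of each cultivar were held at 25 °C. Cold-treated plants spent 3 days at 15 °C, 3 days at 6 °C and 3 days at 4 °C, and leaves were taken after the days at 6 °C and again after those at 4 °C. There were 6 groups of 3 libraries each, and the 2 cold groups of a cultivar therefore differ in time in the cold as well as in temperature. The labels give the control leaves a time of 0 days, although those of Oregon are titled 3 days. No label gives the hour of collection. Cold and control leaves may therefore also differ in days elapsed and plant age, which cannot be told apart from the cold here.

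The 18 libraries held 14769909 to 21911024 estimated read counts and 59649 to 98534 detected transcript groups, the fewest of them in replicate 2 of Fantasy Love at 6 °C. The leaf label was checked with 29 transcript groups named for photosynthetic leaf proteins. Their summed level was 115481 to 146064 TPM (transcript abundance per length, scaled to library size) in the controls of Oregon and 126934 to 146049 in those of Fantasy Love, and 8858 to 22214 in the cold libraries. Libraries of a group are labelled biological replicates without a statement of whether each is a separate plant, so the p-values below measure the spread between these samples. In whole leaves, less RNA per cell and fewer cells of a type cannot be told apart.

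COR410 was low in both cultivars at 25 °C and rose in the cold, and in Fantasy Love it rose again from 6 °C to 4 °C. Levels are given as CPM, read counts scaled to a fixed library size. In Oregon COR410 stood at 115, 84.6 and 135 CPM in the 3 control libraries, at 951, 708 and 481 CPM at 6 °C, and at 1517, 986 and 1334 CPM at 4 °C. In Fantasy Love it stood at 84.3, 103 and 68.2 CPM in the controls, at 664, 296 and 599 CPM at 6 °C, and at 1663, 2380.4 and 2222 CPM at 4 °C. Every cold library lay above every control library in both cultivars, and within each cultivar the 4 °C libraries all lay above the 6 °C libraries.

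**Figure D1:**
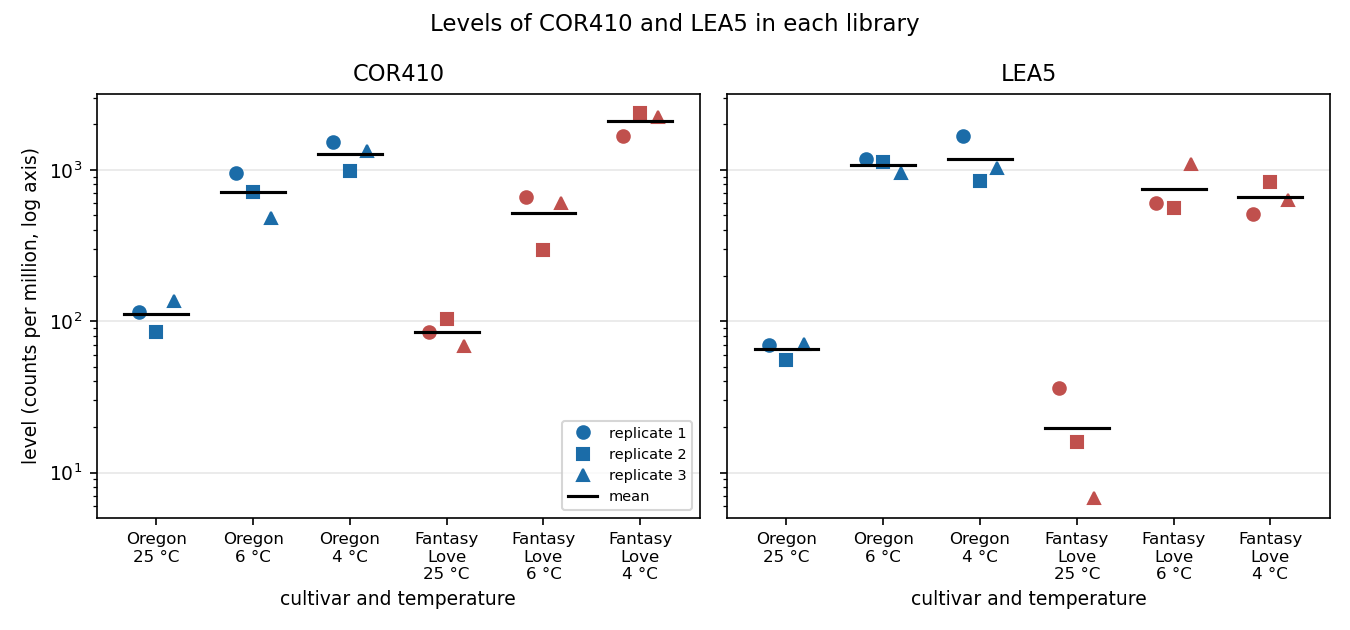
Levels of COR410 (left) and LEA5 (right) in CPM on a log axis, for the 3 libraries of each cultivar and temperature; symbols give the replicate number, blue is Oregon, red is Fantasy Love, and black bars are means. All cold libraries lie above the controls of their cultivar for both genes, and the COR410 libraries at 4 °C lie above those at 6 °C, a step called in Fantasy Love and not in Oregon. LEA5 at 6 °C and 4 °C overlaps, and it is lowest and most spread in the Fantasy Love controls, at 6.76 to 36.2 CPM.

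The first question was how each cultivar answered the cold. In Oregon COR410 rose at 6 °C by a log2 fold change of 2.67 ± 0.33 (SE), or 6.39-fold (edgeR quasi-likelihood test, Benjamini-Hochberg adjusted p = 3.06e-06). Calls required an adjusted p under 0.05 together with a log2 fold change of at least 1 in size. By that rule 28.3% of all tested genes rose in this comparison and 20.1% fell, so a rise as such was common, and 22.4% of genes had a larger fold change than COR410. At 4 °C COR410 had risen by 3.52 ± 0.34 on the log2 scale, or 11.5-fold (edgeR adjusted p = 2.48e-07), where 28.4% of all genes rose and 20.6% fell.

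In Fantasy Love the rise of COR410 at 6 °C was 2.61 ± 0.32 on the log2 scale, or 6.11-fold (edgeR adjusted p = 5.84e-06); 23.8% of all genes rose there and 16.6% fell, or 19% and 20% with quantile normalisation. At 4 °C it was 4.62 ± 0.36, or 24.6-fold (edgeR adjusted p = 1.59e-08, with 28.5% of all genes rising and 21.6% falling). That was the largest of the 4 cold responses of COR410, and 9.37% of genes had a larger one in the same comparison. The median of all genes moved by 0.30 to 0.39 on the log2 scale in these 4 comparisons, and relative to it COR410 rose by 2.31 to 4.23.

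LEA5 also rose in the cold, with no called difference between 6 °C and 4 °C. In Oregon LEA5 stood at 69.7, 55.5 and 71.1 CPM in the controls, at 1171, 1119 and 947 CPM at 6 °C, and at 1681, 839 and 1026 CPM at 4 °C. In Fantasy Love it stood at 36.2, 15.8 and 6.76 CPM in the controls, at 607, 561 and 1085 CPM at 6 °C, and at 514, 836 and 633 CPM at 4 °C. All cold libraries lay above all controls, and the 6 °C and 4 °C libraries overlapped in both cultivars.

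In Oregon LEA5 rose by 4.04 ± 0.47 on the log2 scale at 6 °C, or 16.5-fold, and by 4.17 ± 0.47 at 4 °C, or 18.1-fold (edgeR adjusted p = 1.89e-06 and 1.46e-06). In Fantasy Love it rose by 5.26 ± 0.50 at 6 °C, or 38.3-fold, and by 5.08 ± 0.50 at 4 °C, or 33.7-fold (edgeR adjusted p = 3.22e-07 and 2.27e-07). Relative to the median of all genes these rises were 3.68 to 4.96. The folds of Fantasy Love start from lower and more scattered controls. Without replicate 1 of Fantasy Love at 25 °C, the library with the most LEA5 in its group, the changes were 6.04 at 6 °C and 5.80 at 4 °C on the log2 scale. When the LEA5 counts were summed with those of its assembly component, which includes a lipoyl synthase, they were 3.97 and 3.79, and quantile normalisation with limma gave 6.12 at 4 °C. All of these values passed the test.

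The next question was whether the step from 6 °C to 4 °C, taken 3 days later, added to the rise. In Fantasy Love COR410 rose again, by 2.01 ± 0.32 on the log2 scale or 4.02-fold (edgeR adjusted p = 5.57e-04). That comparison had few rises, since 1.83% of all genes rose and 7.19% fell, or 5.15% and 6.49% with quantile normalisation, and 5.33% of genes had a larger fold change. A fit to the 6 libraries of these 2 groups alone gave 1.96 with an edgeR adjusted p of 0.0549, which misses the threshold, and quantile normalisation gave 2.91. Replicate 2 of Fantasy Love at 6 °C, the library with the fewest detected transcript groups, had the least COR410 of its group, and without it the value was 1.68 and still called.

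In Oregon COR410 was higher at 4 °C than at 6 °C by 0.84 ± 0.31 on the log2 scale, which did not pass (edgeR adjusted p = 0.183; 95% confidence interval 0.20 to 1.49; 0.910% of all genes rose). LEA5 did not pass in either cultivar. The difference of 4 °C from 6 °C was 0.13 ± 0.42 in Oregon (edgeR adjusted p = 0.955) with a 95% confidence interval of -0.74 to 1.0. In Fantasy Love it was -0.18 ± 0.42 (edgeR adjusted p = 0.832) with an interval of -1.06 to 0.69. A rise of up to 2-fold in Oregon and a fall of up to 2-fold in Fantasy Love lie inside these intervals.

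**Figure D2:**
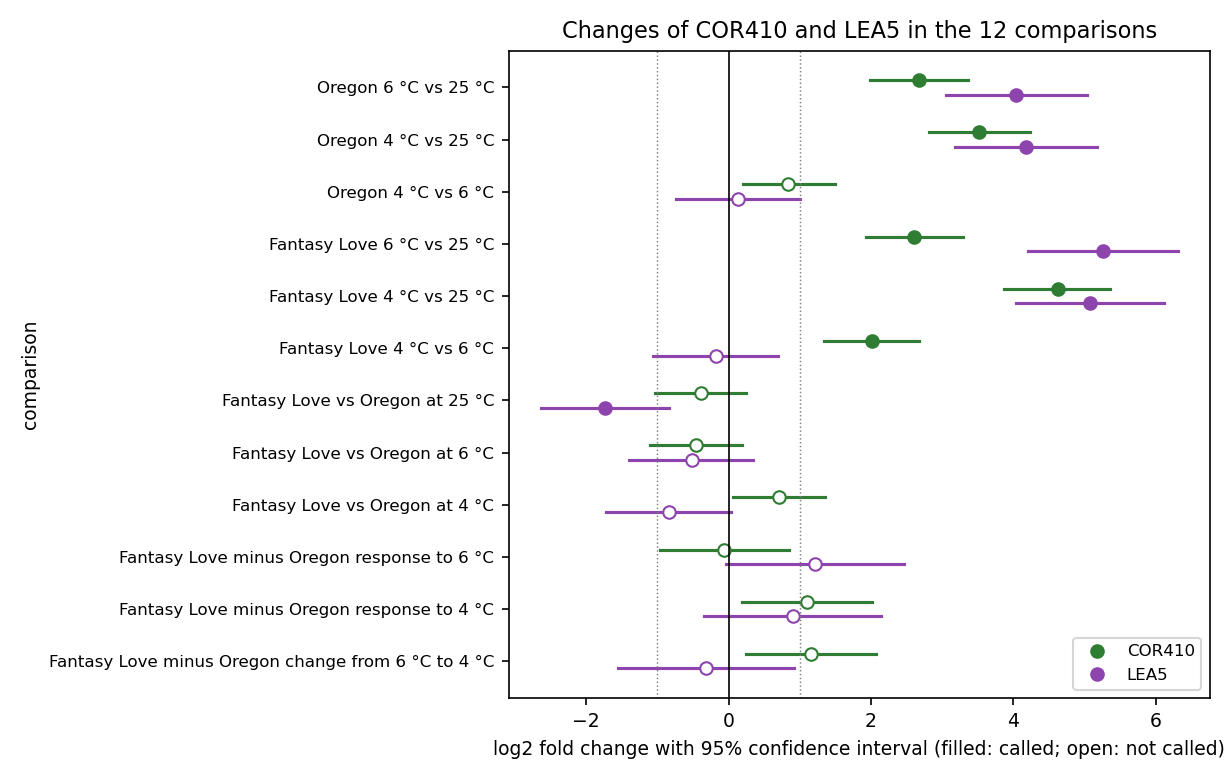
Log2 fold changes of COR410 (green) and LEA5 (purple) in the 12 comparisons, with 95% confidence intervals as lines; filled points were called and open points were not, and dotted lines mark a 2-fold change. Both genes rose in all 4 comparisons with 25 °C, only COR410 in Fantasy Love was called between 6 °C and 4 °C, and only LEA5 at 25 °C was called between cultivars.

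Between cultivars at the same temperature, 1 of the 6 differences was called. LEA5 at 25 °C was lower in Fantasy Love, at 19.6 ± 15.1 CPM (SD, n = 3), than in Oregon, at 65.5 ± 8.61 CPM (SD, n = 3). The log2 difference was -1.74 ± 0.43 (edgeR adjusted p = 0.00826), where 7.05% of all genes were lower in Fantasy Love. The 3 Fantasy Love libraries all lay below the 3 Oregon libraries, but spread over a 5.35-fold range against 1.28-fold in Oregon. Without replicate 1 of Fantasy Love at 25 °C the difference was -2.56. Summed over the assembly component it was -0.78 and no longer called (edgeR adjusted p = 0.0967); the lipoyl synthase group in that sum, DN52422_c2_g2, averaged 24 CPM in the Fantasy Love controls, more than LEA5 itself.

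At 6 °C LEA5 was lower in Fantasy Love by a log2 difference of -0.52 (interval -1.40 to 0.35; 11.3% of all genes lower) and at 4 °C by -0.84 (interval -1.72 to 0.04; 10.2% lower), and neither passed with edgeR (adjusted p = 0.367 and 0.162). COR410 differed between the cultivars by -0.39 at 25 °C (interval -1.04 to 0.25) and by -0.46 at 6 °C (interval -1.10 to 0.19), which did not pass either (edgeR adjusted p = 0.42 and 0.279). At 4 °C it was higher in Fantasy Love by 0.71 (interval 0.06 to 1.35; edgeR adjusted p = 0.107; 8.95% of all genes higher). There the 3 Fantasy Love libraries all lay above the 3 Oregon libraries, and quantile normalisation gave 1.47 and a call (limma adjusted p = 0.00444).

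Whether the cultivars responded by different amounts was tested as an interaction. The response of COR410 to 6 °C differed by -0.06 (interval -0.97 to 0.85; edgeR adjusted p = 1.0; 3.97% of all genes called lower in Fantasy Love). Its response to 4 °C was larger in Fantasy Love by 1.10 (interval 0.19 to 2.01; edgeR adjusted p = 0.124; 3.86% of all genes called higher). Its change from 6 °C to 4 °C was larger there by 1.16 (interval 0.25 to 2.07; edgeR adjusted p = 0.149; 0.950% called higher, or 2.45% with quantile normalisation). Neither passed the threshold; with quantile normalisation both did, at 1.85 and 1.84 (limma adjusted p = 0.0178 and 0.0389).

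For LEA5 the response to 6 °C was larger in Fantasy Love by 1.22 (interval -0.03 to 2.46; edgeR adjusted p = 0.209; 5.06% of all genes called higher), and the response to 4 °C by 0.90 (interval -0.34 to 2.14; edgeR adjusted p = 0.388). Its change from 6 °C to 4 °C differed by -0.32 (interval -1.55 to 0.92; edgeR adjusted p = 0.844; 2.63% of all genes called lower, or 3.13% with quantile normalisation). None was called. Without replicate 1 of Fantasy Love at 25 °C the first became 2.04 and passed (edgeR adjusted p = 0.02).

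Put in order, the mean level of COR410 was 85 ± 17.2 CPM in Fantasy Love at 25 °C, 112 ± 25.5 in Oregon at 25 °C, 519.8 ± 196 in Fantasy Love at 6 °C, 713 ± 235 in Oregon at 6 °C, 1279 ± 270.1 in Oregon at 4 °C and 2088 ± 377 in Fantasy Love at 4 °C (SD, n = 3). The libraries of the 2 control groups overlapped, as did those of the 2 groups at 6 °C; the other neighbours did not. LEA5 ran in another order, from Fantasy Love at 25 °C through Oregon at 25 °C to 661 ± 162 CPM in Fantasy Love at 4 °C, 751 ± 290.2 in Fantasy Love at 6 °C, 1079 ± 117 in Oregon at 6 °C and 1182 ± 442 in Oregon at 4 °C (SD, n = 3). Each of these 4 cold groups overlapped the next in the order. In CPM the group with the most COR410, Fantasy Love at 4 °C, had the lowest mean LEA5 of the cold groups; in TPM its mean was 465 ± 103 against 439 ± 184 in Fantasy Love at 6 °C (SD, n = 3), so that the order of these overlapping groups depends on the scale.

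Levels of different genes can be set side by side only per transcript length, for which the deposited TPM values were used. By this measure COR410 was among the most abundant transcripts of the leaf at 4 °C. Its rank by TPM was 11 to 15 in the 3 Fantasy Love libraries at 4 °C and 37 to 55 in those of Oregon. At 6 °C it ranked 71 to 506 in Fantasy Love and 80 to 171 in Oregon, against 1361 to 2170 and 876 to 1642 in the controls. LEA5 ranked 90 to 147 in Oregon at 4 °C and 133 to 223 in Fantasy Love at 4 °C, and 134 to 151 and 157 to 476 at 6 °C. In the controls LEA5 ranked 3565 to 4777 in Oregon and 7265 to 24042 in Fantasy Love.

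The TPM of COR410 exceeded that of LEA5 by a mean of 2.98 ± 0.334-fold in Oregon at 25 °C, 1.16 ± 0.27-fold at 6 °C and 2.02 ± 0.363-fold at 4 °C (SD, n = 3). In Fantasy Love the ratio was 4.2, 11.6 and 17.9 in the controls, 1.97, 0.954 and 1 at 6 °C, and 5.78, 5.11 and 6.27 at 4 °C. In both cultivars the mean ratio was lowest at 6 °C, where single libraries ran from 0.906 to 1.44 in Oregon and from 0.954 to 1.97 in Fantasy Love, and was higher at 4 °C. The ratio was compared between groups in 9 pairs with exact two-sided permutation tests on its log2, for which 3 libraries against 3 allow no p below 0.1. In 7 of the 9 pairs the groups did not overlap (exact permutation p = 0.1, Benjamini-Hochberg adjusted p = 0.129). The exceptions were Fantasy Love at 25 °C against 4 °C (exact permutation p = 0.4) and Oregon against Fantasy Love at 6 °C (exact permutation p = 0.8).

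**Figure D3:**
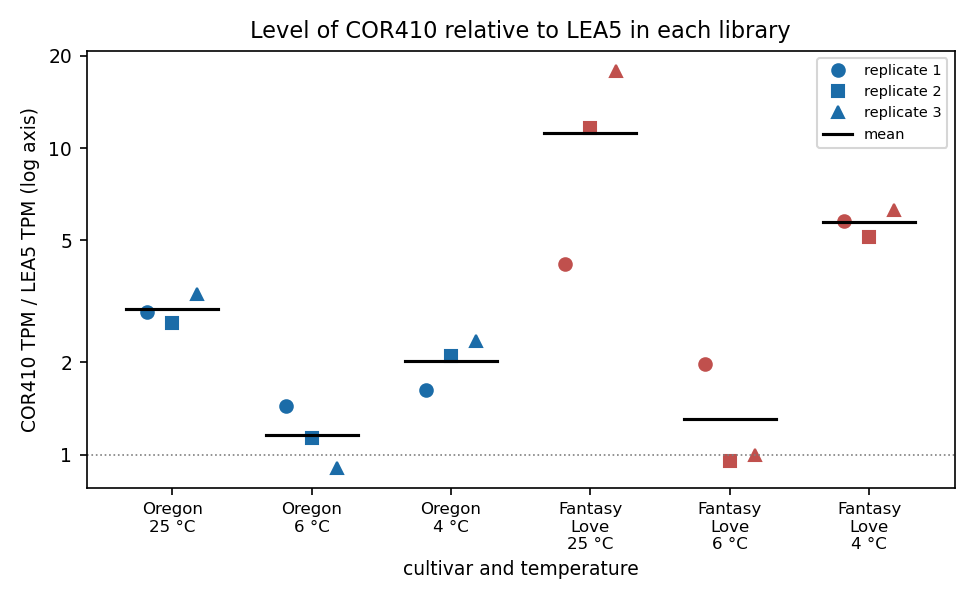
COR410 TPM divided by LEA5 TPM in each library, on a log axis, by cultivar and temperature; symbols give the replicate number, black bars are means, and the dotted line marks equal levels. At 6 °C the ratio is 0.906 to 1.44 in Oregon and 0.954 to 1.97 in Fantasy Love, and at 4 °C it is 5.11 to 6.27 in Fantasy Love against 1.62 to 2.34 in Oregon.

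Other members of the LEA families give the setting. COR410 was the only transcript group of the table with a dehydrin domain. No group carried the LEA_1, LEA_4, LEA_5, LEA_6 or SMP (seed maturation protein) domains. LEA_3 was found in 5 groups, of which 4 were tested. In Oregon 1 rose and 1 fell at 6 °C, and 2 rose and 1 fell at 4 °C. In Fantasy Love 2 rose at 6 °C, and at 4 °C 2 rose and 1 fell. Of all genes 23.8% to 28.5% rose and 16.6% to 21.6% fell in these 4 comparisons, and 4 groups are too few to set against those shares. The fall in Oregon at 6 °C was not called without replicate 2 or 3 of that group or replicate 1 of its controls, and without replicate 3 of Fantasy Love at 6 °C 1 group rose there. The median log2 fold change of these 4 groups was -0.08, 2.36, 0.61 and 0.75 in that order, beside 0.36, 0.39, 0.30 and 0.39 over all genes. LEA5 was the group that rose in all 4 comparisons.

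Another LEA_3 group, DN31550_c0_g1, is also named for citrus Lea5. It had 13, 29 and 37 counts in the 3 Oregon libraries at 4 °C and 0 in each of the other 15, so that its level at 4 °C was at least 18.5-fold above that of the Oregon controls, taking 3 counts over the control group as the floor. DESeq2's Wald test did not call it, while edgeR did (adjusted p = 0.00407). It passed the filter on low counts only through the libraries where it is high, so this call gives no separate support. In the remaining comparisons with 25 °C it had no counts on either side, and it entered the LEA_3 medians as 0.00. SAG21, DN58339_c0_g1, had 14, 9 and 18 counts in the same 3 libraries and 0 elsewhere, too few to be tested. In all, 106 transcript groups had counts in every Oregon library at 4 °C and none in the other 15, against 15 to 198 such groups for each of the other 5 sets of libraries. Both groups were thus minor beside LEA5. DN57217_c1_g1, a LEA_3 group with no protein name, was at 24.6 ± 4.74, 22 ± 5.58 and 36.1 ± 1.22 CPM in Oregon from 25 °C to 4 °C, and rose in Fantasy Love from 5.24 ± 0.462 CPM to 12.2 ± 2.95 and 14.8 ± 3.05 CPM (SD, n = 3); without replicate 3 at 6 °C its log2 fold change there was 0.99, just under the threshold.

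LEA_2 proteins, a family that also holds the NDR1/HIN1-like proteins of plant immunity, gave 31 groups, of which 30 could be compared. More of them fell than rose at 4 °C: 5 rose and 16 fell in Oregon, and 7 rose and 15 fell in Fantasy Love, where 28.4% and 28.5% of all genes rose and 20.6% and 21.6% fell. At 6 °C 9 rose and 16 fell in Oregon, and 9 rose and 9 fell in Fantasy Love, beside 28.3% and 23.8% of all genes rising and 20.1% and 16.6% falling. Without replicate 2 of Fantasy Love at 6 °C that last count was 9 rising and 15 falling, and with quantile normalisation it was 7 and 13. The median log2 fold change was -1.30 and -1.55 in Oregon at 6 °C and 4 °C, and -0.61 and -1.46 in Fantasy Love, where the first was -1.34 without that library. The LEA_2 group with the highest mean level, DN50043_c0_g4, fell from 757 ± 76.1 CPM in the Oregon controls to 10.7 ± 1.26 CPM at 4 °C, and from 561 ± 51.8 to 5.99 ± 0.77 CPM in Fantasy Love (SD, n = 3; edgeR adjusted p = 3.35e-08 and 1.46e-08).

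LEA14-A, DN56232_c1_g1, a LEA_2 protein named for cotton Lea14-A, went the other way in Fantasy Love. Its level there was 8.17 to 23.2 CPM at 25 °C, 39.8 to 159 CPM at 6 °C and 139 to 223 CPM at 4 °C, and it rose by 2.95 and 3.77 on the log2 scale (edgeR adjusted p = 1.02e-04 and 7.41e-06). In Oregon it rose by 1.43 at 6 °C (edgeR adjusted p = 0.0155), a call lost without replicate 1 or 2 of Oregon at 6 °C or replicate 1 or 3 of its controls (edgeR adjusted p = 0.0559 to 0.0697), and at 4 °C the log2 fold change was 0.34, which was not called (edgeR adjusted p = 0.547).

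**Figure D4:**
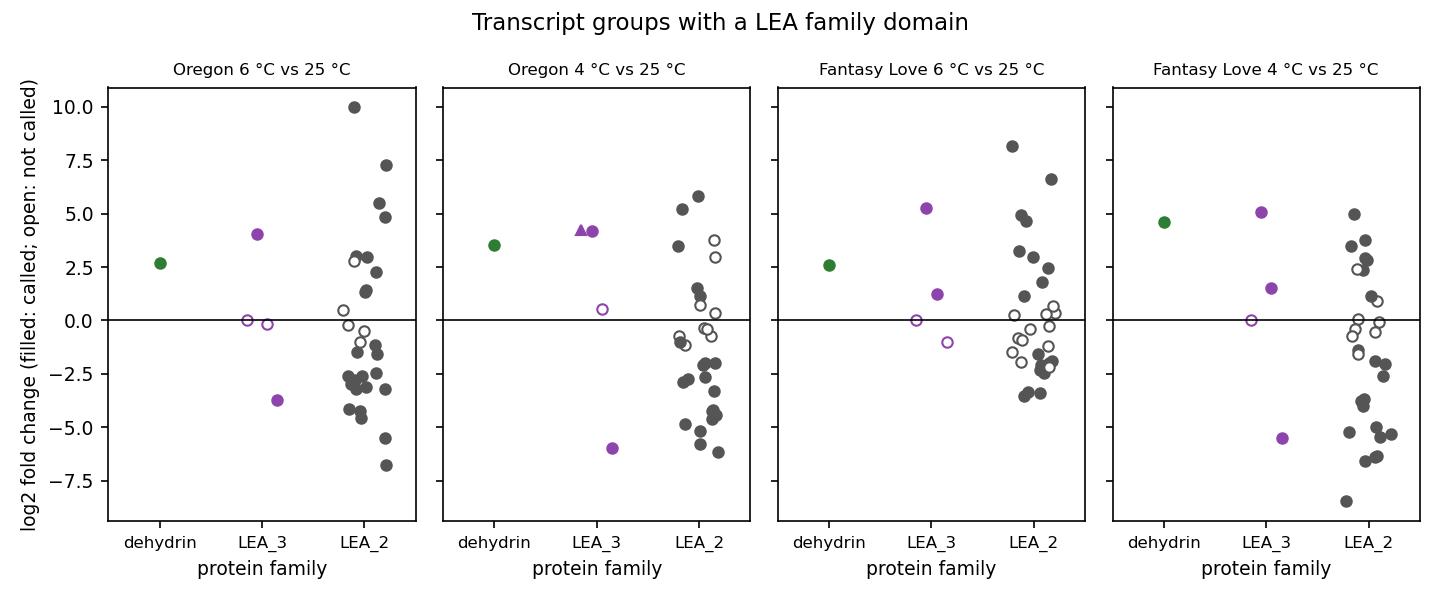
Log2 fold change of each tested transcript group with a dehydrin, LEA_3 or LEA_2 domain in the 4 comparisons with 25 °C; filled points were called, open points were not, and the triangle is a lower bound for a group with 0 counts at 25 °C. COR410 is the only dehydrin and is above 0 in each panel, and the LEA_2 groups spread on both sides of 0 with 16 falling against 5 rising in Oregon at 4 °C.

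The transcription factors that switch on dehydrins in Arabidopsis belong to the DREB family, which binds dehydration-responsive promoter elements; its CBF branch answers cold, and ICE1 acts upstream of CBF. The table had 11 groups with such names, 9 of them tested, named DREB2B, DREB3 or ICE1. The groups named DREB1D, a CBF factor, had 27 and 29 counts in all and were too low to be tested. The counts below therefore hold no CBF group. In Oregon 4 rose and 5 fell at 6 °C, and 3 rose and 5 fell at 4 °C. In Fantasy Love 3 rose and 4 fell at 6 °C, or 4 and 5 without replicate 2 of that group, and 4 rose and 5 fell at 4 °C. Without replicate 3 of Fantasy Love at 6 °C 2 rose and 2 fell there, and without replicate 3 at 4 °C or replicate 1 or 3 of the controls 2 rose at 4 °C. The median log2 fold change was -2.08 and -2.40 in Oregon and -1.21 and -4.26 in Fantasy Love, beside 0.30 to 0.39 over all genes. This median counts each group alike, whatever its level. In Oregon at 6 °C the ICE1 group DN53571_c0_g2 rose from 78.1 ± 6.79 to 199 ± 13.1 CPM (SD, n = 3). The ICE1 group DN49494_c0_g1 fell there from 22.9 ± 2.77 to 4.34 ± 1.13 CPM (SD, n = 3). Over all genes 28.3% rose and 20.1% fell in Oregon at 6 °C and 28.4% and 20.6% at 4 °C, and in Fantasy Love 23.8% and 16.6%, then 28.5% and 21.6%.

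Both groups named DREB2B, a DREB factor of drought and heat, rose in every comparison with 25 °C. In Oregon DN53016_c0_g1 was at 0.637 to 1.33 CPM at 25 °C, 107 to 151 CPM at 6 °C and 219 to 541 CPM at 4 °C. In Fantasy Love it was at 0.447 to 2.49, 143 to 336 and 85.3 to 95.3 CPM. The 4 °C libraries thus stood above the 6 °C libraries in Oregon and below them in Fantasy Love, which is not the order of COR410, though neither step was called (edgeR adjusted p = 0.0699 and 0.0738). DN40275_c0_g1 rose from 7.76 ± 2.31 to 152 ± 13.8 and 119 ± 19.1 CPM in Oregon and from 1.1 ± 0.129 to 100.3 ± 13.4 and 146 ± 29.7 CPM in Fantasy Love (SD, n = 3).

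Among 11 groups named for other cold- or desiccation-induced proteins, all tested, 3 rose and 2 fell in Oregon at both temperatures. In Fantasy Love 4 rose and 1 fell at 6 °C, and 4 rose and 2 fell at 4 °C. These counts are near the shares of all genes in Oregon, where 28.3% and 28.4% rose and 20.1% and 20.6% fell; in Fantasy Love 23.8% and 28.5% of all genes rose and 16.6% and 21.6% fell. Without replicate 2 of Fantasy Love at 6 °C, 4 rose and 3 fell at 6 °C. The median log2 fold changes were -0.11 and -0.35 in Oregon and 0.13 and 0.67 in Fantasy Love; that of -0.11 became 0.02 with quantile normalisation, and that of 0.13 became -0.14 without the library named. ERD7, DN56217_c0_g1, is a protein of early drought response that acts on membrane lipids. It rose from 6.71 ± 1.9 to 309 ± 106 CPM in Oregon at 6 °C and from 10 ± 2.45 to 133 ± 67.1 CPM in Fantasy Love (SD, n = 3, edgeR adjusted p = 5.53e-08 and 2.39e-06). Another ERD7 group, DN43530_c0_g2, also rose there in both cultivars. The ERD7 group DN56217_c0_g4 was not called, at 7.77 ± 1.51 and 7.19 ± 0.773 CPM in Oregon and 7.58 ± 0.692 and 11.5 ± 2.09 CPM in Fantasy Love (SD, n = 3).

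LTI6A, DN49991_c0_g1, a small hydrophobic membrane protein of the cold response, was the most abundant of these 11 groups. It rose by 1.30 at 6 °C and 1.03 at 4 °C on the log2 scale in Fantasy Love (edgeR adjusted p = 0.00147 and 0.00549), and gave 0.85 and 0.62 in Oregon, where it was not called. These rises lay at the fold threshold: the first was 0.95 without replicate 3 of Fantasy Love at 6 °C, and the second was 0.85 to 0.95 without replicate 1 or 3 at 4 °C or replicate 2 or 3 of the controls. COR413PM2, DN38357_c2_g3, a cold-regulated plasma membrane protein, fell in Fantasy Love at 4 °C from 77.6 ± 10.7 to 15.5 ± 0.666 CPM (SD, n = 3), a log2 fold change of -2.33 (edgeR adjusted p = 6.14e-08).

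Abscisic acid, the hormone of drying and seed maturation, is the other known switch of LEA genes. Of 30 groups named for its core signalling proteins, the PYL receptors, PP2C phosphatases, SnRK2 kinases and ABF and ABI5 factors, 26 were tested. In Oregon 5 rose and 7 fell at 6 °C, and 7 rose and 9 fell at 4 °C; in Fantasy Love 9 rose and 6 fell, and then 9 rose and 7 fell. The shares of all genes were 28.3%, 28.4%, 23.8% and 28.5% rising and 20.1%, 20.6%, 16.6% and 21.6% falling in that order, and several of these counts are near them. Without replicate 2 of Fantasy Love at 6 °C, 7 rose and 8 fell there, without replicate 3 of its controls 5 rose and 6 fell, and without replicate 2 of Oregon at 6 °C 3 rose and 7 fell in Oregon. The median log2 fold changes ran from -0.01 to 0.56, beside 0.30 to 0.39 over all genes, and the lowest became 0.26 with quantile normalisation. The kinase group SAPK7, DN53561_c0_g3, rose from 13.7 ± 10.2 to 227 ± 27.3 CPM in Fantasy Love at 4 °C, and the kinase SRK2E, DN40722_c1_g5, fell from 46.9 ± 4.76 to 4.16 ± 0.652 CPM (SD, n = 3; edgeR adjusted p = 6.90e-07 and 3.11e-09). Other groups named SAPK7 differed there. DN53561_c0_g2 went from 129.7 ± 4.21 to 65.9 ± 6.96 CPM (SD, n = 3), a log2 fold change of -0.98, just short of the threshold and not called. DN49883_c1_g1 rose from 7.03 ± 5.92 to 52 ± 8.47 CPM (SD, n = 3).

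Of 9 groups for the making and breaking down of abscisic acid 8 were tested. In Oregon 4 rose and 3 fell at 6 °C, and 2 rose and 5 fell at 4 °C; in Fantasy Love 2 rose and 3 fell, and then 2 rose and 4 fell. Without replicate 2 of Fantasy Love at 6 °C, or with quantile normalisation, 3 rose and 3 fell there; without replicate 1 of that group or replicate 1 or 2 of its controls 1 rose. In Oregon at 4 °C the count of falls was 3 without replicate 1 or 2 of that group or replicate 1 of its controls, and 2 without its replicate 3. With the group that has 0 counts in some conditions set to its bound, the median log2 fold changes were 1.69 and -1.71 in Oregon and -0.40 and -1.23 in Fantasy Love, beside 0.36, 0.39, 0.30 and 0.39 over all genes. Of all genes 23.8% to 28.5% rose and 16.6% to 21.6% fell. Zeaxanthin epoxidase, DN54425_c1_g1, an early step of synthesis, fell in Fantasy Love from 362 ± 24.9 to 66.4 ± 23.2 CPM at 6 °C, and in Oregon from 133 ± 14.6 to 34.5 ± 5.95 CPM (SD, n = 3). NCED, DN43607_c1_g4, another enzyme of synthesis, was at 2.07 ± 0.994, 23.3 ± 12 and 0.637 ± 0.209 CPM in Oregon from 25 °C to 4 °C. In Fantasy Love it was at 3.13 ± 2.08, 10.1 ± 8.13 and 2.4 ± 0.797 CPM (SD, n = 3). Its mean was thus highest at 6 °C in both cultivars. The enzymes of breakdown moved apart: CYP707A1, DN48615_c0_g1, rose in Oregon at 4 °C from 1.08 ± 0.445 to 19 ± 6.96 CPM, while CYP707A4, DN42218_c0_g2, fell from 26 ± 4.47 to 0.679 ± 0.268 CPM (SD, n = 3).

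Genes with a like pattern were sought among 9974 tested groups that have a protein name and a mean of at least 10 CPM. The measure was the root mean square (RMS) difference between log2 CPM profiles, each centred on its own mean, over the 18 libraries, and it is given as a description. LEA5 was the 865th most like gene to COR410, and COR410 the 289th most like gene to LEA5, at an RMS difference of 1.202 on the log2 scale. The 5 genes closest to LEA5 were CAMBP25 (0.474), a calmodulin-binding protein of osmotic stress, TPS7 (0.5) and TPS8 (0.502), members of the trehalose-phosphate synthase family, HIPP39 (0.509), a metal-binding isoprenylated protein, and WRKY76 (0.566), a transcription factor. They were chosen for this likeness, so their profiles are described without a test. HIPP39, DN54796_c1_g2, the most abundant of them, went from 32.8 ± 14.4 to 474 ± 88.1 and 649 ± 108 CPM in Oregon and from 7.27 ± 1.34 to 444 ± 147 and 333 ± 98.2 CPM in Fantasy Love (SD, n = 3).

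For COR410, ranks 2 to 5 were held by COR413PM2 in another group, DN43495_c0_g2 (0.529), the receptor-like kinase At1g56130 (0.544), the plastid glyceraldehyde-3-phosphate dehydrogenase GAPCP1 (0.544) and hexokinase HXK3 (0.547). This COR413PM2 group rose from 1.84 ± 0.567 to 18.7 ± 1.87 and 23 ± 2.18 CPM in Oregon and from 2.61 ± 0.491 to 17.8 ± 8.62 and 42.4 ± 7.38 CPM in Fantasy Love (SD, n = 3), opposite in direction to the COR413PM2 group that fell.

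The closest profile to COR410 stood far nearer than these. It belonged to DN53269_c1_g2, at an RMS difference of 0.102. This group has 9 assembled forms and a listed length of 4109 bases, and is named for a tRNA wybutosine-synthesizing protein, an enzyme of tRNA modification. In replicate 1 of Oregon at 25 °C its 1210 counts gave 94.8 TPM, while 1629 counts of COR410 gave 96.3 TPM. By these values its counted forms were far shorter than the listed length. Across the 18 libraries COR410 counts ran from 1069 to 53434 and those of DN53269_c1_g2 from 768 to 31928, yet the count of COR410 divided by that of DN53269_c1_g2 stayed between 1.28 and 1.67. The ratio was 1.28 to 1.45 in the Fantasy Love controls and 1.52 to 1.67 at 4 °C, and 1.32 to 1.38 and 1.44 to 1.45 in Oregon. Whether the assembled forms share sequence and reads was not tested, since no sequence was used here, and the level of COR410 is uncertain to that extent. With both groups summed, an alternative added after the likeness was seen, no COR410 comparison changed its call or direction. Because the counts of both groups run nearly in proportion, the sum could hardly change either, and it does not test for shared reads.

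**Figure D5:**
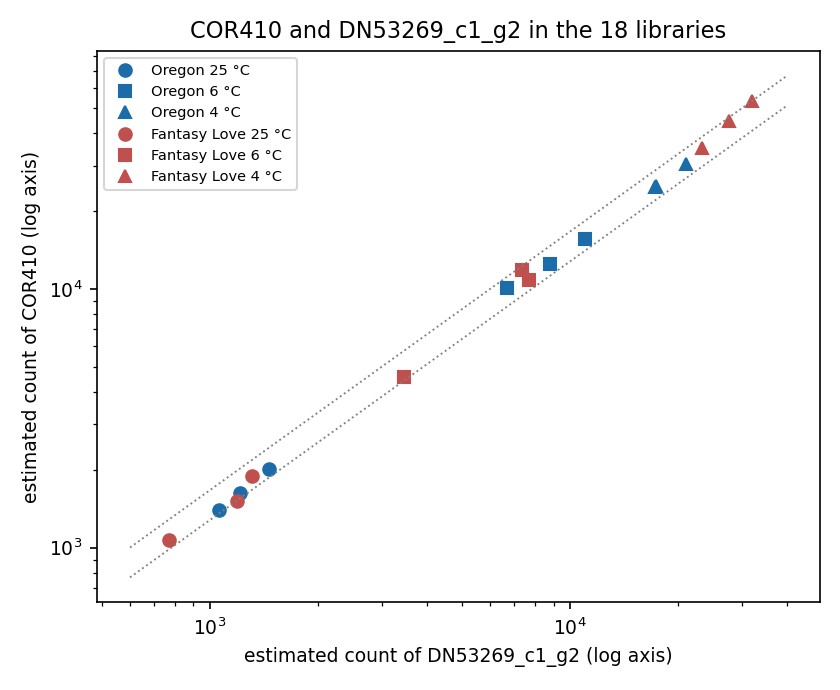
Estimated counts of COR410 against those of DN53269_c1_g2 in the 18 libraries, both on log axes; blue is Oregon, red is Fantasy Love, and the shape gives the temperature. All points lie between the dotted lines, which mark count ratios of 1.28 and 1.67.

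The remaining groups of both assembly components held few counts. In the component of COR410, DN40128_c2_g1 averaged 29 counts per library, and the other groups were too low to be tested. In that of LEA5 the lipoyl synthase group DN52422_c2_g2 averaged 229.6 counts and went the other way from LEA5, from 15.7 CPM in the Oregon controls to 5.74 and 5.72 CPM in the cold, and from 24 to 12.2 and 12.9 CPM in Fantasy Love.

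Because LEA genes are highly expressed in seeds and pollen, markers of both were read in every library. The summed level of 9 seed-marker groups was 31.1 to 59.4 TPM in the control libraries and 82.7 to 251 TPM in the cold libraries, and 5, 5, 5 and 4 of the 9 rose in the 4 cold comparisons, where 28.3%, 28.4%, 23.8% and 28.5% of all genes rose. In Oregon at 6 °C 2 fell, and in Fantasy Love at 4 °C 1 fell, where 20.1% and 21.6% of all genes fell. From 6 °C to 4 °C in Fantasy Love 2 of the 9 fell, where 7.19% of all genes fell. The median log2 fold change of the 9 was -1.09 there, beside 0.03 over all genes. No group was named for 11S globulin, legumin, vicilin or 2S albumin, the defining seed storage proteins. The single oleosin and glutelin groups stayed at or under 20.2 and 5.27 TPM. Groups named BG, a basic globulin, were among those that rose. In Oregon the BG group DN40910_c0_g4 went from 1.61 ± 1.28 to 228 ± 90.8 CPM at 6 °C and 123 ± 65.2 CPM at 4 °C. In Fantasy Love it went from 0.276 ± 0.212 to 102 ± 98.2 and 36.5 ± 11.1 CPM (SD, n = 3). The BG group DN51566_c3_g2 had 0 counts in the Oregon controls and rose there at least 44.8-fold and 29.7-fold. In Fantasy Love DN51566_c3_g2 was not called. The 14 pollen and anther groups summed to 178 to 288 TPM over all 18 libraries. The part of such cells, and of the fall in leaf-marker transcripts, in the levels of COR410 and LEA5 was not tested.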

How the data were processed

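The authors deposited 1 table of transcript groups with Trinity identifiers and 2 values per library. The deposited estimated counts are not normalised, and 4.207% of the values have decimals. The deposited second value has no unit in the file header and was read as TPM, because it sums to 981487 to 994409 per library and its value per count falls with length. Trimming with cutadapt 1.9 is recorded in the submitters' processing notes. No assembler version or quantification tool is given in the sources used here.

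Counts were rounded, filtered with filterByExpr (minimum count 10, minimum total 15), scaled by TMM and fitted in 1 edgeR 4.0.16 quasi-likelihood model of 6 group means over 18 libraries (R 4.3.3), with 12 comparisons. The Benjamini-Hochberg adjustment ran over 51670 genes. SEs were obtained from log2 fold changes and F statistics. Reads shared by like transcript groups cannot be told apart, and intervals and floors cover counting or replicate error only.

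Lists came from words in the protein names, and Pfam classes were added after the table was seen; a Rab-21 hit was removed from the dehydrin names. The text names all tested dehydrin and LEA-named groups, the 5 genes most like each member, and from each other list the group with the highest mean and, per cold comparison, the called group with the lowest adjusted p, or a selection of these. DN57217_c1_g1, SAG21 and the groups of both assembly components were named outside the list rule, the first 2 after their values were seen. NCED, BG, the DREB1D and ICE1 groups and the SAPK7 groups other than DN53561_c0_g3 were also named outside it, after their values were seen. So were the ERD7 groups other than DN56217_c0_g1. The members and lists were chosen with earlier results of these data known. Alternatives were DESeq2 1.42.0 size factors and Wald test, quantile normalisation with limma 3.58.1, no filter, only the groups compared, a replicate block, sums over component or protein name, counts per base in place of TPM for the ratio, and leaving out each library; the sum of COR410 with DN53269_c1_g2 was added after the data were seen. The fit was tested on simulated counts. Python 3.11.15, pandas 2.3.3 and matplotlib 3.10.9 were used.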

Additional observations from a re-analysis of the deposited data

How the results depend on the processing

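The 8 rises of COR410 and LEA5 against 25 °C kept direction and call in all 120 values under the alternatives run. Over the 24 results of both genes 380 of 396 alternative values did so. Some of these alternatives could hardly move the values. COR410 is the only group of its protein name, so that sum left its counts unchanged, and its component adds few counts. The other group named Lea5 adds 79 counts to the 216166 of LEA5, and DN53269_c1_g2 runs nearly in proportion to COR410. Fitting only the groups compared ended the COR410 call between 6 °C and 4 °C in Fantasy Love (1.96), and the component sum ended the LEA5 call between cultivars at 25 °C (-0.78). Quantile normalisation called the cultivar difference of COR410 at 4 °C (1.47) and its interactions (1.85 and 1.84). Signs near 0 turned: the COR410 interaction at 6 °C gave 0.00 with quantile normalisation and -0.34 to 0.23 with 1 library left out; LEA5 between 6 °C and 4 °C gave -0.19 to 0.33 in Oregon, and in Fantasy Love -0.44 to 0.11, or 0.28 with quantile normalisation. The LEA5 interaction gave 0.81 to 2.04 at 6 °C with 1 library left out, -0.04 at 4 °C in the component sum, and 0.06 from 6 °C to 4 °C with quantile normalisation. The causes were not tested. Of 1343 values for 90 results of other named genes, 22 lost the call and 0 turned.

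The replicate block changed no call of either gene, for example 2.02 for COR410 between 6 °C and 4 °C in Fantasy Love. Residual correlations of same-numbered libraries were -0.066 to 0.104 in 18 pairs, and 8 of 18 libraries were most like one of their own number. Whether replicate numbers pair the libraries is not settled by these values, since the labels do not say what the numbers stand for. The columns of the Fantasy Love controls also carry other numbers than their labels. The block took replicate 1 of each cultivar as its base, so its comparisons between cultivars refer to replicate 1 and not to the group means. Taken so, 4484 in place of 7955 of all genes were called between cultivars at 25 °C, 6258 in place of 12080 at 6 °C and 6105 in place of 9917 at 4 °C. These counts therefore do not measure the same difference. Fitting only the groups compared gave 11738 in place of 20870 genes in Fantasy Love at 6 °C against 25 °C, 463 in place of 4661 at 4 °C against 6 °C, 3734 in place of 1152 in Oregon there, 5062 between cultivars at 6 °C, and 3055, 7446 and 796 for the interactions in place of 4669, 4595 and 1849. Quantile normalisation gave 2197 in Oregon at 4 °C against 6 °C and 7329, 8107 and 2882 for the interactions; DESeq2's Wald test gave 2214 and, for the last interaction, 3876. With 1 library left out these counts ran from 182 to 819 in Oregon at 4 °C against 6 °C, 2765 to 7312 in Fantasy Love, and 2626 to 7288, 2891 to 3764 and 790 to 4622 for the interactions. The median of all genes in the 4 comparisons with 25 °C moved by 0.32 to 0.48 with DESeq2 size factors and by 0.00 to 0.15 with quantile normalisation.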
